A study of Homo sapiens with 4 samples.

Results

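The BCL2 family decides whether mitochondria release the proteins that start apoptosis, and 10 of its genes were followed here by name across 2 human liver cancer cell lines and 2 siRNAs. They are BAX, BAK1, BCL2, BCL2L1, MCL1, BID, BAD, BBC3, PMAIP1 and BCL2L11, and they were taken by gene symbol from 18398 rows that each hold 1 RefSeq transcript and its gene. All 10 genes had a row in every library. Huh1 and Huh7 are established hepatocellular carcinoma (HCC) lines. Each was transfected with a negative control siRNA (NCsiRNA), which has no target among human transcripts, or with an siRNA against CDCA8 (CDCA8siRNA), the gene of borealin, a subunit of the chromosomal passenger complex that guides chromosomes through mitosis. The study's methods give 15 nM of siRNA, and its figure legend for the sequencing results gives 48 h of treatment. Each of the 4 conditions had 1 library, which leaves the spread between replicates unmeasured for every value given here.

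In this family, BAX and BAK1 are the effectors, which assemble into pores in the outer mitochondrial membrane. BCL2, BCL2L1 (the gene of BCL-XL) and MCL1 are the anti-apoptotic members, which bind the effectors and hold them back. BID, BCL2L11 (BIM), BBC3 (PUMA), PMAIP1 (NOXA) and BAD share only a short BH3 helix with the rest, and they occupy the groove of the anti-apoptotic proteins or activate the effectors. Hepatocytes are known to depend on BCL-XL and MCL1, and BID links death receptors to mitochondria in liver cells. Much of the control of these proteins lies in splicing, cleavage, phosphorylation and turnover, none of which is seen in RNA levels.

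Levels are in RPKM, a unit that divides the reads of a gene by transcript length and library depth, so that genes can be set side by side. Library depth corresponds to between 12197606 and 13384836 reads. CDCA8 itself measured 24.1 RPKM with NCsiRNA and 5.86 RPKM with CDCA8siRNA in Huh1, which left 24.3% of the control level. In Huh7 it measured 51.5 and 7.36 RPKM, which left 14.3%. All 9 hepatocyte markers examined (ALB, AFP, APOA1, APOB, TTR, SERPINA1, TF, FGB and HNF4A) exceeded 1 RPKM in every library. Their summed level was 5215 and 4004 RPKM in Huh1 and 3308 and 2321 RPKM in Huh7 with NCsiRNA and CDCA8siRNA. In the limma fit described below, 7 of the 9 were called lower with CDCA8siRNA (adjusted p under 0.05), where 4.21% of 10357 genes were. Of 9 markers of other cell types, 6 or 7 were under 1 RPKM in each library, and those of leukocytes and endothelium (PTPRC, CD3E, CD14 and CDH5) were under it in all 4. The stromal genes COL1A1 and COL1A2 exceeded 1 RPKM in Huh7 only, the biliary gene KRT7 in Huh1 only, and KRT19 in both lines. The part of these markers in the results for the BCL2 family was not tested.

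The promoters of BCL2L1 and BID are shown because these are the members that passed the test for an effect of CDCA8siRNA. Each is the RefSeq window on GRCh38.p14 from 250 bases before to 50 bases after the first start listed for the gene, 5′ to 3′ on the minus strand, with matches to the motifs named after them in capitals.
BCL2L1, chr20:31723914-31724213: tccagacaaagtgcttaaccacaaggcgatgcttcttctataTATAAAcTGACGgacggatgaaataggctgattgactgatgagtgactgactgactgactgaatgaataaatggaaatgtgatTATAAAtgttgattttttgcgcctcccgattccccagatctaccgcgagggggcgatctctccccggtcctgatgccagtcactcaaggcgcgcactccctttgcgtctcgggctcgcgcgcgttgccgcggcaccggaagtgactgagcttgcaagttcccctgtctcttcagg
BID, chr22:17774420-17774719: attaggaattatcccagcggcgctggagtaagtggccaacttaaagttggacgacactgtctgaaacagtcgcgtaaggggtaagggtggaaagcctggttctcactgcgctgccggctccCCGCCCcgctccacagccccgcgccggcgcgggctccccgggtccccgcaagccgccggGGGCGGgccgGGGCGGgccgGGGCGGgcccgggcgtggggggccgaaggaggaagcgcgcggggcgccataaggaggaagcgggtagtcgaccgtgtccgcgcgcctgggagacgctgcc

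The letters searched, on both strands, were GGGCGG (the GC box, bound by SP1), CCAAT (bound by NF-Y), TATAAA (bound by TBP), CACGTG (the E-box), TGACGTCA (the cyclic AMP response element, CRE), the shorter TGACG that lies within the CRE, 2 forms of the E2F site (TTTGGCGC and also TTTCCCGC), and finally TGATGCAA (bound by ATF4 and its partners). Windows were matched for 9 of the 10 genes, BCL2 among them and MCL1 not. The BID window held 4 GC boxes and no other match. The BCL2L1 window held TATAAA at 2 places and TGACG at 1. Matches were counted anywhere in a window, whatever their distance from the start, so they do not show that a site is used. BCL2L1 was the 1 gene of these 9 with TATAAA in its window, against 12.0% of 27305 promoters, and a GC box stood in 6 of 9, against 44.6%. The BAX window held 4 E-boxes, letters found in 2 of the 9 windows and in 7.43% of promoters. CCAAT was in 5 of 9 (35.7% of promoters) and TGACG in 5 of 9 (25.0%). The full CRE (1.98%), the E2F letters (0.659% and 1.66%) and TGATGCAA (0.923%) were in 0 of 9. The windows were rich in G and C, with a median of 68.3% over the 9 windows against 58.3% over all promoters, and with 52.0% in BCL2L1 and 71.7% in BID. RefSeq lists 2 starts for BCL2L1 and 5 for BID, and which of them the cells used was not examined.

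The members spanned from near absence to the upper range of all genes, and their order differed between the lines. In Huh1 with NCsiRNA, BAX was the highest member at 93.1 RPKM, followed by MCL1 at 82.9 RPKM and BCL2L1 at 43.2 RPKM. In Huh7 with NCsiRNA, BCL2L1 at 94.0 RPKM and MCL1 at 90.0 RPKM led, followed by BID at 68.5 RPKM and BAX at 53.6 RPKM. These are levels above 90.6% to 96.0% of all rows. The gap of 4.03 RPKM between BCL2L1 and MCL1 in Huh7 was within 2 SDs of read counting (SD of the gap 2.26 RPKM). So were the gaps between BCL2L11 and BAD and between PMAIP1 and BBC3 in the same library. In Huh7 with CDCA8siRNA the pairs within 2 counting SDs were BID and BAX, BAD and BCL2L11, and BBC3 and PMAIP1. In Huh1, every neighbouring pair in the order was separated by more than 2 counting SDs under both siRNAs. The counting SD covers the sampling of reads only and no variation between cultures.

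**Figure D1:**
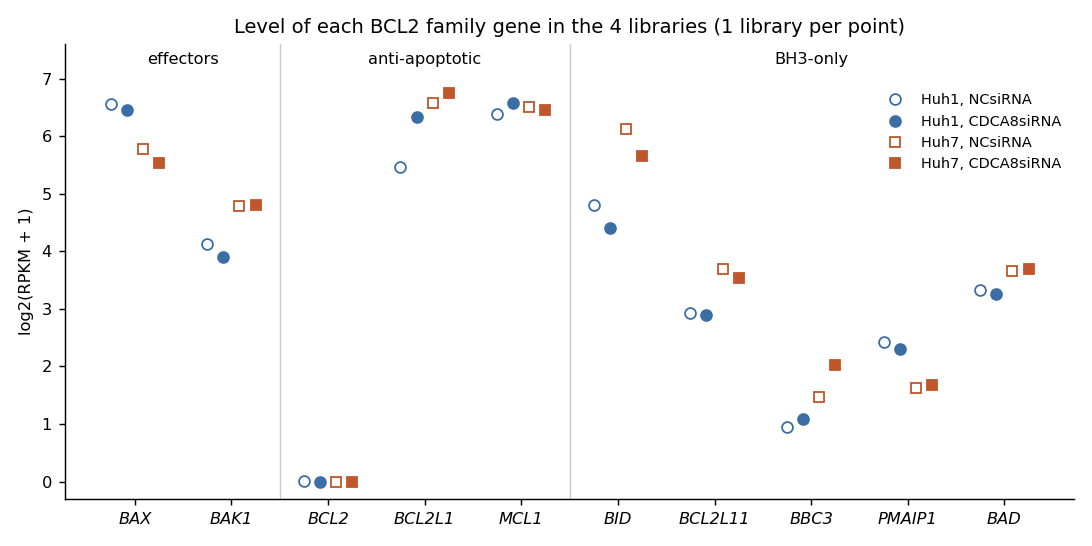
Level of each gene as log2(RPKM + 1), with 1 point for each library; circles are Huh1, squares are Huh7, open symbols NCsiRNA and filled symbols CDCA8siRNA. BCL2 lies at the bottom in all 4 libraries, BCL2L1 is lowest in Huh1 with NCsiRNA, and BID is lower with CDCA8siRNA than with NCsiRNA in both lines.

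BCL2, the founding member, on chromosome 18 from 63123346 to 63320128 on the minus strand, was close to undetected in both HCC lines. It had 0.0115 RPKM in Huh1 with NCsiRNA, the worth of about 1 read, and was listed at 0 in the other 3 libraries. At this depth a count of 0 allows up to 3 reads, which is 0.0305 RPKM in Huh1 with CDCA8siRNA, 0.0330 RPKM in Huh7 with NCsiRNA and 0.0328 RPKM in Huh7 with CDCA8siRNA. No fold change was therefore formed for BCL2, and the other 9 members passed the minimum of 1 RPKM in at least 1 library of each line. BBC3 passed it in Huh1 only through the library with CDCA8siRNA, at 0.934 and 1.12 RPKM.

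Differences between siRNAs were taken on the log2(RPKM + 1) scale, as CDCA8siRNA minus NCsiRNA within a line, and the added 1 makes those of low genes smaller than the plain ratio. None of the 9 members changed 2-fold in Huh1, where 0.494% of 10940 genes did, and none did in Huh7, where 1.57% of 11565 genes did. The median difference of the members was -0.07 in Huh1 (range -0.39 to 0.86) and 0.00184 in Huh7 (range -0.47 to 0.54). Over all genes that passed the minimum, the medians were 0.02 and 0.03. The absolute difference had a median of 0.13 for the members and 0.14 for all genes in Huh1, and of 0.17 and 0.19 in Huh7. With 1 library per condition, no test was possible within a line.

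**Figure D2:**
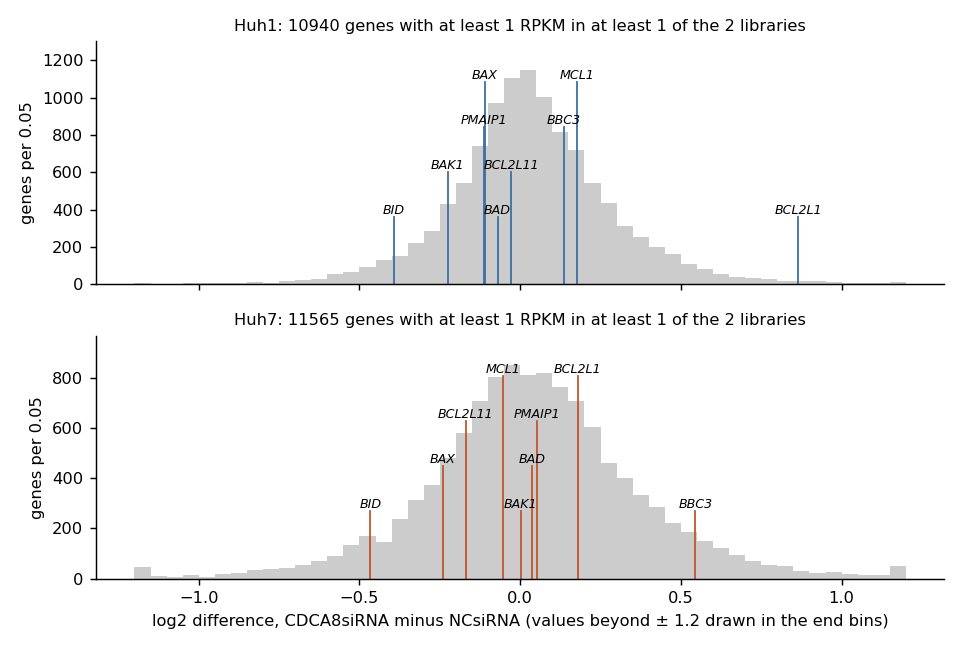
Histograms of the log2 difference between CDCA8siRNA and NCsiRNA over 10940 genes in Huh1 and 11565 genes in Huh7, with a vertical line at each of the 9 members (the height of a line has no meaning). BCL2L1 stands at 0.86 in Huh1, outside the bulk of genes, and at 0.18 in Huh7, within it.

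A test across lines was made with limma, over all genes that passed the minimum in both lines, from 4 libraries and with terms for siRNA and cell line. The fit takes Huh1 and Huh7 as the repeats and tests their mean response, and it holds no information on repeated transfections. A gene can pass with unequal responses in the lines. The variance of a gene was pooled with that of all genes fitted, which counted for 8.29 degrees of freedom against 1 of its own. BCL2L1 was the 1 member of 9 called higher with CDCA8siRNA (limma adjusted p under 0.05), where 6.03% of 10357 genes were. BID was the 1 member of 9 called lower, where 4.21% of genes were. With 1 gene on each side, these counts are no result about the family against that background. Of all calls, 58.9% were on the higher side, and 48.5% with median-ratio scaling. The other 7 members did not pass, with limma adjusted p-values from 0.221 (BBC3) to 0.940 (BAD). Of the 9, 5 had the same direction in Huh1 and Huh7 (BCL2L1, BID, BAX, BBC3 and BCL2L11), against 69.4% of the genes fitted.

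BCL2L1 lies on chromosome 20 of GRCh38 from 31664452 to 31723989 on the minus strand and encodes the long protective form BCL-XL and, by splicing, a short form that promotes death. In Huh1 it measured 43.2 RPKM with NCsiRNA and 79.5 RPKM with CDCA8siRNA, from about 1378 and 2499 reads. In Huh7 it measured 94.0 and 107 RPKM, from about 2733 and 3115 reads. The level in Huh1 with NCsiRNA was thus the lowest of the 4, and CDCA8siRNA took it from 0.459 to 0.746 times the level of Huh7. The ratio of 1.84 in Huh1 was the highest of the 9 members in either line, and the ratio in Huh7 was 1.13. On the log2 scale the difference was 0.86 in Huh1 (counting SD 0.0475) and 0.18 in Huh7 (counting SD 0.0374). A difference as high or higher was seen in 0.649% of all genes in Huh1 and in 30.5% in Huh7. The difference between the lines in this response was -0.69 (Huh7 minus Huh1), with a counting SD of 0.0605, and was not tested since each condition had 1 library. Over both lines, limma gave a log2 effect of 0.52 (SE 0.140, adjusted p = 0.0465). The call was lost without a minimum level (limma adjusted p = 0.262), without the mean-variance trend (0.1001), with robust estimation (0.158) and without the cell line in the fit (1.00), and over all 10 alternatives the adjusted p ran from 0.00266 to 1.00. The file holds 1 row for the gene, so the splice forms are not told apart. The antisense gene ABALON covers 43.0% of the exonic bases of BCL2L1, and no use of strand is stated, so its reads cannot be separated from those of BCL2L1.

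MCL1, a short-lived protector on chromosome 1 (150574551 to 150579738, minus strand), was high and nearly even. It measured 82.9 and 93.9 RPKM in Huh1 and 90.0 and 86.7 RPKM in Huh7 with NCsiRNA and CDCA8siRNA. These 4 levels rest on 4182 to 4872 reads, the most of any member, and the lowest and the highest were both in Huh1. The log2 difference was 0.18 in Huh1 (counting SD 0.0297) and -0.05 in Huh7 (counting SD 0.0310), opposite in direction. The limma effect over both lines was 0.06 (SE 0.0904, adjusted p = 0.711).

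Neither effector passed the test for CDCA8siRNA. BAX, on chromosome 19 from 48954815 to 48961798 on the plus strand, measured 93.1 and 86.1 RPKM in Huh1 and 53.6 and 45.2 RPKM in Huh7. Its level with CDCA8siRNA was 92.6% of the control in Huh1 and 84.3% in Huh7, so the direction was the same in both lines. The log2 differences were -0.11 (counting SD 0.0502) and -0.24 (counting SD 0.0700), and limma gave -0.18 over both lines (SE 0.0875, adjusted p = 0.244), which did not pass. BAK1, on chromosome 6 from 33572547 to 33580293 on the minus strand, measured 16.5 and 14.0 RPKM in Huh1, a log2 difference of -0.23 (counting SD 0.0924). In Huh7 it stood at 26.7 RPKM and 26.8 RPKM, a log2 difference of 0.00184 whose counting SD was 0.0744 and whose sign turned under upper-quartile (-0.01), quantile (-0.02) and median-ratio (-0.04) scaling. The limma effect was -0.11 (SE 0.104, adjusted p = 0.547). Processed pseudogenes of BAK1 are annotated on chromosomes 11 and 20, and how reads shared with them were counted is not stated.

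Among the BH3-only members, BID was lower with CDCA8siRNA in both lines, by a similar amount. It lies on chromosome 22 from 17734138 to 17774770 on the minus strand, and its protein is cut by caspase-8 to reach mitochondria. It measured 26.8 and 20.2 RPKM in Huh1, with NCsiRNA and CDCA8siRNA, from about 789 and 585 reads, and 68.5 and 49.3 RPKM in Huh7, from about 1837 and 1330 reads. With CDCA8siRNA, 75.2% of the control level was left in Huh1 and 72.0% in Huh7. The log2 differences of -0.39 (counting SD 0.0754) and -0.47 (counting SD 0.0510) differed by -0.07, less than the counting SD of that gap, 0.0910. A difference as low or lower was seen in 4.48% of all genes in Huh1 and 6.19% in Huh7. Over both lines limma gave -0.43 (SE 0.0916, adjusted p = 0.0212). The call was lost without a minimum level (limma adjusted p = 0.150), without the trend (0.0505) and without the cell line in the fit (1.00), and over all 10 alternatives the adjusted p ran from 0.00346 to 1.00.

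**Figure D3:**
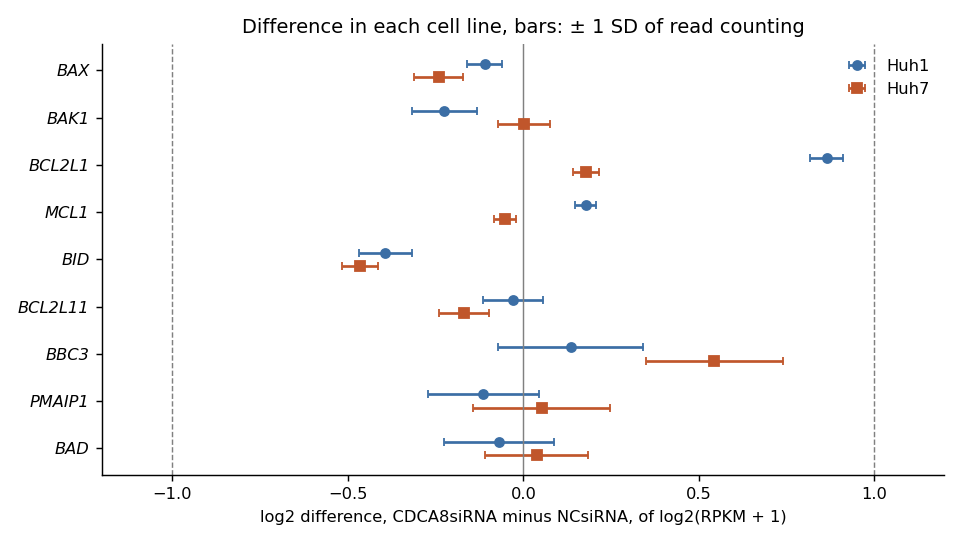
Log2 difference between CDCA8siRNA and NCsiRNA for the 9 members that passed the minimum, with Huh1 as circles and Huh7 as squares; bars are ± 1 SD of read counting and dashed lines mark 2-fold. BID is lower in both lines by similar amounts, the difference of BCL2L1 is far larger in Huh1 than in Huh7, and no member reaches 2-fold.

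BBC3, which binds every anti-apoptotic member, lies on chromosome 19 from 47220822 to 47232766 on the minus strand and was low in all 4 libraries and highest in Huh7 with CDCA8siRNA. In Huh1 it measured 0.934 RPKM and 1.12 RPKM, the worth of 23 and 27 reads, and in Huh7 1.78 RPKM and 3.05 RPKM, the worth of 40 and 69 reads. The ratio of 1.72 in Huh7 corresponds to a log2 difference of 0.54 with a counting SD of 0.196, while the 0.13 in Huh1 was within its counting SD of 0.206. The difference in Huh7 depends on the constant added before the log, with 0.75 when it is 0.1 RPKM and 0.25 when it is 5 RPKM. At these read numbers the gap of 0.41 between the lines (counting SD 0.285) was not detectable as a difference. The limma effect was 0.34 (SE 0.161, adjusted p = 0.221).

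PMAIP1, BCL2L11 and BAD gave small differences between siRNAs, mostly within counting error. PMAIP1, which binds MCL1 and lies on chromosome 18 from 59899948 to 59904306 on the plus strand, measured 4.36 and 3.95 RPKM in Huh1 and 2.07 and 2.19 RPKM in Huh7, on 49 to 114 reads, and both differences were smaller than their counting SD. BCL2L11, which activates the effectors and lies on chromosome 2 from 111119378 to 111168447 on the plus strand, measured 6.57 and 6.42 RPKM in Huh1 and 12.0 and 10.5 RPKM in Huh7. Its log2 difference in Huh7, -0.17, had a counting SD of 0.0715, and that in Huh1, -0.03, one of 0.0852. BAD, which is held inactive by survival kinases and lies on chromosome 11 from 64269830 to 64284704 on the minus strand, measured 9.09 and 8.62 RPKM in Huh1 and 11.7 and 12.0 RPKM in Huh7, again within counting error. Opposite-strand genes share exonic bases with 2 of these, GPR137 with 23.7% of BAD and MIR4435-2HG with 10.9% of BCL2L11, and their reads could not be told apart.

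Members differed between the lines in both directions. The same limma fit was now read for Huh7 minus Huh1. Here the NCsiRNA and CDCA8siRNA libraries of a line served as its repeats. The adjusted p-values of limma for this effect therefore hold no information on variation between cultures of a line. By this fit, 6 of 9 members were called higher in Huh7 (BID, BAK1, BCL2L1, BBC3, BCL2L11 and BAD), where 39.1% of all genes were. BAX and PMAIP1, 2 of 9, were called lower in Huh7, where 28.7% of genes were. Most genes thus differed between the lines in this fit, 7016 of 10357, and the count for the family is to be read against that. The share of these calls on the side of Huh7 was 57.7%, and 45.0% with median-ratio scaling.

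BID had the largest difference of the family between the lines, 26.8 RPKM in Huh1 against 68.5 RPKM in Huh7 with NCsiRNA and 20.2 against 49.3 RPKM with CDCA8siRNA. Its level in Huh7 was 2.55 times that in Huh1 with NCsiRNA and 2.44 times with CDCA8siRNA, and limma gave 1.28 on the log2 scale (SE 0.0916, adjusted p = 1.97e-06). BCL2L1 was 2.18 times as high in Huh7 with NCsiRNA but 1.34 times with CDCA8siRNA. Its limma effect of 0.76 (SE 0.140, adjusted p = 0.000939) was not called without the siRNA in the fit (adjusted p = 0.0781). With NCsiRNA alone, BID and BCL2L1 were the 2 of 9 members at least 2-fold higher in Huh7 on the log2(RPKM + 1) scale, where 17.0% of 11896 genes were. With median-ratio scaling the log2 difference of BCL2L1, 1.10, became 0.93, which is under 2-fold. That of PMAIP1, -0.80, became -1.04 with 0.1 RPKM added before the log and with quantile normalization, which is past 2-fold in the other direction, and -0.40 with 5 RPKM added.

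BAX and PMAIP1 ran the other way. The level of BAX in Huh1 was 1.74 times that in Huh7 with NCsiRNA and 1.91 times with CDCA8siRNA (limma log2 effect -0.85, SE 0.0875, adjusted p = 2.14e-05). PMAIP1 was 2.10 and 1.81 times as high in Huh1 (limma log2 effect -0.72, SE 0.134, adjusted p = 0.00101). The effectors thus had no common direction, since BAK1 was 1.62 and 1.92 times as high in Huh7 (limma log2 effect 0.78, SE 0.104, adjusted p = 0.000122).

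BCL2L11, BBC3 and BAD were also called higher in Huh7, and MCL1 had close to the same level in both lines. BCL2L11 was 1.82 and 1.64 times and BBC3 1.90 and 2.72 times as high in Huh7, with NCsiRNA and with CDCA8siRNA. Their limma effects were 0.71 (SE 0.111, adjusted p = 0.000348) for BCL2L11 and 0.73 (SE 0.161, adjusted p = 0.00284) for BBC3. BAD was 1.28 and 1.39 times as high in Huh7 (limma log2 effect 0.38, SE 0.107, adjusted p = 0.0108). The log2 difference of BBC3 with NCsiRNA, 0.52, was 0.20 with quantile normalization and 0.86 with 0.1 RPKM added before the log. MCL1 differed by 0.00166 on the log2 scale between the lines in the limma fit (SE 0.0904, adjusted p = 0.988), and its sign turned under 3 other scalings. The median gene was itself 0.14 higher in Huh7 with NCsiRNA, which fell to 0.02 with quantile normalization and to -0.01 with median-ratio scaling. Relative to that median, the difference with NCsiRNA was 1.18 for BID, 0.96 for BCL2L1, -0.92 for BAX, -0.94 for PMAIP1, 0.19 for BAD and -0.02 for MCL1. BAD was no longer called by limma with quantile normalization (adjusted p = 0.0552) or median-ratio scaling (adjusted p = 0.0946).

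**Figure D4:**
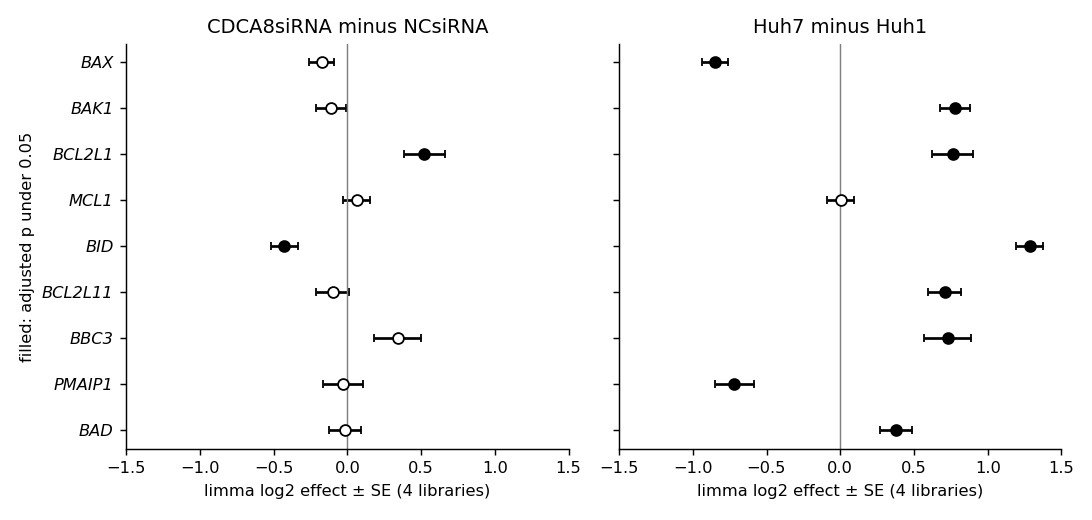
Limma log2 effects with their standard errors for the 9 members, for the siRNA (left) and the cell line (right), from 1 fit to 4 libraries; filled points have an adjusted p under 0.05 over 10357 genes. On the left BCL2L1 (0.52) and BID (-0.43) are filled, and on the right all but MCL1 are.

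Genes around the family were taken from 5 lists: other BCL2 relatives, proteins of the mitochondrial release step, inhibitor of apoptosis proteins (IAPs), factors that set MCL1 turnover, and transcription factors that act upstream of the family. Of their 42 genes in the limma fit, 5 were called higher and 1 was called lower with CDCA8siRNA, where 6.03% and 4.21% of all genes fitted were. None changed 2-fold in either line on the log2(RPKM + 1) scale, where 0.494% of genes in Huh1 and 1.57% in Huh7 did. The IAP gene BIRC3 came to 0.93 in Huh7, from 4.10 RPKM with NCsiRNA and 8.74 RPKM with CDCA8siRNA. Its plain ratio was past 2-fold, and it did not pass limma (adjusted p = 0.156). The counts for single lists, of 6 to 11 genes each, are to be read against the same shares. The median effect was 0.06 over the 42 genes, -0.03 over the 9 members and 0.03 over all genes.

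Of 8 other relatives, BECN1 was called higher and BNIP3 lower. BECN1, a BH3-bearing protein of autophagy, measured 24.1 and 31.2 RPKM in Huh1 and 22.6 and 33.5 RPKM in Huh7 (limma log2 effect 0.45, SE 0.0991, adjusted p = 0.0232). BNIP3, a mitophagy receptor, measured 155 and 129 RPKM in Huh1 and 368 and 230 RPKM in Huh7 (limma log2 effect -0.47, SE 0.1004, adjusted p = 0.0214). The remaining 6 did not pass, with effects from -0.14 to 0.35, and 5 more relatives with a row were not fitted because they were under the minimum in at least 1 line.

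Of 11 genes of the release step, 1 passed. CYCS, the gene of cytochrome c, which leaves mitochondria once BAX or BAK1 open, measured 57.4 and 75.5 RPKM in Huh1 and 66.0 and 89.4 RPKM in Huh7 (limma log2 effect 0.41, SE 0.0845, adjusted p = 0.0188). The median of the list was -0.06. Of 6 IAP genes fitted, 1 was called higher, BIRC5, the gene of survivin. It is also a partner of borealin in the chromosomal passenger complex, and it measured 26.6 and 30.8 RPKM in Huh1 and 39.3 and 67.2 RPKM in Huh7 (limma log2 effect 0.48, SE 0.128, adjusted p = 0.0450). None of 6 genes of MCL1 turnover passed limma at an adjusted p under 0.05. At an unadjusted limma p under 0.05, 2 of 6 did (PTMA and FBXW7), where 2694 of 10357 genes did.

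Of 11 upstream factors, JUN and ATF3, which bind DNA at AP-1 and CRE-like sites in answer to stress, were called higher. JUN measured 15.5 and 25.5 RPKM in Huh1 and 24.7 and 37.9 RPKM in Huh7 (limma log2 effect 0.64, SE 0.0961, adjusted p = 0.00568). ATF3 measured 4.68 and 7.67 RPKM in Huh1 and 5.21 and 8.74 RPKM in Huh7 (limma log2 effect 0.63, SE 0.114, adjusted p = 0.0116). The other 9 did not pass. The 6 calls over these lists were lost without a minimum level and without the cell line in the fit, and 2 were left without the trend.

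**Figure D5:**
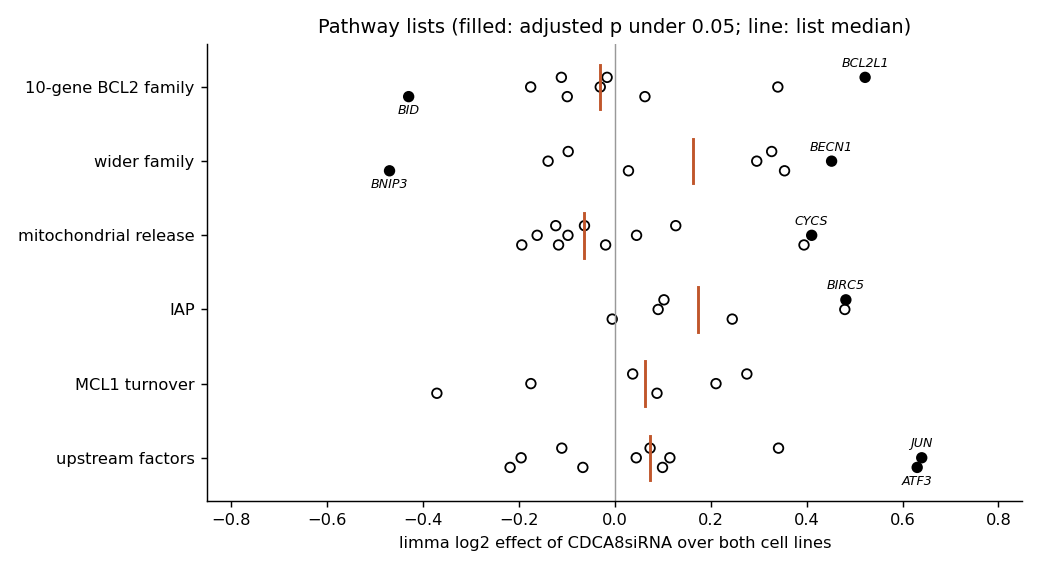
Limma log2 effect of CDCA8siRNA over both lines for the genes of each list that passed the minimum; filled points have an adjusted p under 0.05 and the vertical bar is the median of the list. The medians lie between -0.06 and 0.17, and 8 points are filled, 2 of them in the 10-gene family.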

How the data were processed

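Per the labels, TruSeq RNA libraries were made from Huh1 and Huh7 cells under either siRNA, 1 per condition. The authors deposited 1 value per RefSeq transcript and library, which are RPKM as deduced from the values. The submitters' processing notes name CASAVA 1.8.2, TopHat2 2.0.9 and hg19, while the counter, annotation and filters are not given in the sources used here. Samples were grouped by their titles, dose came from the study's methods and time from its figure legend for the sequencing results. The 10 members and the other gene lists were chosen with earlier results of these data known. Every member was named, and of the other lists every gene called.

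Values were used as log2(RPKM + 1), and a gene entered a comparison if any of its libraries reached 1 RPKM (for limma, any library of each line). Changes within a line were called at 2-fold, with no test. limma 3.58.1 in R 4.3.3 (lmFit, then eBayes with trend) was fitted to 10357 genes and 4 libraries with siRNA and cell line as terms, leaving 1 residual degree of freedom, and Benjamini-Hochberg adjusted p-values under 0.05 were called. An interaction could not be tested. Reads behind a value were taken from RPKM, GENCODE 29 transcript length and the RPKM worth of 1 read, and give counting error only, less exactly where the authors used another length. Gene positions are on GRCh38, and no coordinates were taken from the expression files. Each gene has 1 row, so splice forms were not separated. Other pseudocounts, minimum levels, scalings and limma settings were tried.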

Additional observations from a re-analysis of the deposited data

Results flagged for a closer look

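In 4 of the 9 members fitted, the difference between CDCA8siRNA and NCsiRNA pointed in opposite directions in Huh1 and Huh7. Over the 10357 genes fitted, 69.4% had the same direction in both lines, so opposite directions were common and are no trait of the family. With 1 library per condition the difference between the lines was not tested, and it is given here as the log2 difference in Huh7 minus that in Huh1. For MCL1 it was -0.23, with a counting SD of 0.0429, from 0.18 in Huh1 and -0.05 in Huh7. For BAK1 it was 0.23, with a counting SD of 0.119, and the direction in Huh7 (0.00184) turned under 3 other scalings. For PMAIP1 it was 0.17 and for BAD 0.11, both under their counting SDs of 0.251 and 0.214, and the direction in Huh7 turned under quantile normalization for PMAIP1 (-0.03) and under median-ratio scaling for BAD (-0.000712).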

How the results depend on the processing

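No paired analysis was possible because each condition had 1 library, other than the cell line term of limma, which compares the siRNAs within each line. For the same reason no replicate could be left out. No member changed 2-fold in either line under any alternative. Members different 2-fold between Huh7 and Huh1 with NCsiRNA numbered 2, against 1 with median-ratio scaling and 3, with PMAIP1, with a pseudocount of 0.1 RPKM or quantile normalization. Of all 11896 genes compared, 3239 differed 2-fold in either direction, against 3212 with median-ratio scaling. That number was 3962 with a pseudocount of 0.1 RPKM and 3116 with quantile normalization. Members called by limma for the siRNA numbered 2, against 0 without a minimum level, 0 without the cell line in the fit, 0 without the trend and 1 with robust estimation. At an unadjusted limma p under 0.05, the main fit had 2 members and 2694 of 10357 genes. In the first 3 of these alternatives, limma had 2, 0 and 3 members at that unadjusted p. Other listed genes called numbered 6, against 0, 0 and 2 in those same 3 fits, 9 with upper-quartile scaling or quantile normalization, 8 with a minimum of 5 RPKM and 7 with median-ratio scaling. Over all genes, limma called 1061 for the siRNA and 0 without a minimum level or without the cell line. Without the trend 710 genes were still called, and with robust estimation 949. Genes changed 2-fold numbered 54 in Huh1 and 182 in Huh7, against 164 and 422 with a pseudocount of 0.1 RPKM and 11 and 47 with 5 RPKM, which also took those between lines from 3239 to 1586. Of 183 single-member differences under alternatives, 35 moved by more than counting error, and of 176 single-member limma effects 10 lost their call. The cause was not tested. With 23 to 69 and 49 to 114 reads, BBC3 and PMAIP1 are the members most limited by depth among those fitted.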

Other observations

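Summed by role, a sum chosen after the values were seen, the anti-apoptotic members stood at 126 and 173 RPKM in Huh1 with NCsiRNA and CDCA8siRNA and at 184 and 193 RPKM in Huh7. The effectors stood at 109.5 and 100.1 RPKM in Huh1 and at 80.3 and 72.0 RPKM in Huh7. The anti-apoptotic sum was 1.15 times the effector sum in Huh1 with NCsiRNA (counting SD 0.0296) and 1.73 times with CDCA8siRNA (counting SD 0.0450). In Huh7 the ratios were 2.29 (counting SD 0.0653) and 2.69 (counting SD 0.0791). Both lines thus had the higher ratio with CDCA8siRNA, and Huh7 had the higher ratio under both siRNAs. BCL2L1 over BAX alone was 0.464 and 0.923 in Huh1 and 1.75 and 2.36 in Huh7. BID held 56.1% and 50.1% of the BH3-only sum in Huh1 and 71.4% and 64.0% in Huh7. These are ratios of RNA levels from 1 library each, with no test. Their counting SDs cover the sampling of reads only. The reads of BCL2L1 in them cannot be separated from those of the antisense gene ABALON.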
